A study of Homo sapiens with 2 samples.

Results

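RXRA encodes the retinoid X receptor alpha, and the PAX-8 ChIP-Seq peaks assigned to this gene were described here. All unique peaks that the authors' annotation gives the symbol RXRA were taken, which were 23 of the 45360 peaks in the list. The gene was chosen by this high number of assigned peaks, so the number and the peak density are given as a description and were not tested. The ChIP library was made from the monocytic leukemia line THP-1, a human cell line, and was set by the authors against 1 Input library of chromatin without immunoprecipitation. In both, the cells were first turned into macrophages by PMA (160 nmol/L, 24 h) and then into foam cells by ox-LDL over 48 h. The ox-LDL dose is 50 mg/mL in the labels and 50 μg/mL in the methods. Both libraries were from cells that then received 100 μM 3-hydroxystearic acid (C18-3OH) for 24 h, so the list contains no untreated cells and cannot show an effect of C18-3OH. The labels and methods mention an independent repeat of the ChIP-Seq, but 1 peak list was analysed here and how it relates to that repeat is unknown. No value therefore has a replicate, and the total number of reads is unknown. The definition of the listed fold enrichment is also unknown. Intervals on tags, counts and shares cover counting error only.

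Retinoid X receptors are nuclear receptors that bind DNA as partners of other nuclear receptors. In macrophages, RXRA pairs with the liver X receptors, which sense oxysterols and switch on cholesterol efflux genes such as ABCA1, and with the PPARs, which respond to fatty acids. PAX-8 is a paired-domain transcription factor best known from thyroid and kidney development.

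RXRA lies on the plus strand of chromosome 9, and the list names 3 transcripts with 3 start sites on hg19. NM_002957 starts at 137218300, NM_001291920 starts at 137271140, which is 52840 bp further in, and NM_001291921 starts at 137298405. All end at 137332431 or 137332432. No RXRA peak covered any of the 3 start sites. The nearest peak centres were 2329 bp before and 4877 bp after the first start, 1743 bp before and 14059 bp after the second, and 11157 bp before and 10676 bp after the third. RefSeq gives the promoter sequence on GRCh38.p14 for a pair of RXRA starts that are also 52840 bp apart, and these are shown because they differ in composition and the RXRA peaks lie beside them rather than over them. Each runs from 250 bases before to 50 bases after the start on chromosome 9, from 134326205 to 134326504 for the first and from 134379045 to 134379344 for the second, and capitals mark the GC box GGGCGG.
RXRA start 1: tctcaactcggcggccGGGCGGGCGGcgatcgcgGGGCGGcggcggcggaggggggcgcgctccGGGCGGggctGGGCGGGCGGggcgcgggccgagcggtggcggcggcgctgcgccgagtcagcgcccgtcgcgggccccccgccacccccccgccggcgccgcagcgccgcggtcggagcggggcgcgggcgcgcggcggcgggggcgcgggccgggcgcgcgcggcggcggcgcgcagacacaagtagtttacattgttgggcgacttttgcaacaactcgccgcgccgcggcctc
RXRA start 2: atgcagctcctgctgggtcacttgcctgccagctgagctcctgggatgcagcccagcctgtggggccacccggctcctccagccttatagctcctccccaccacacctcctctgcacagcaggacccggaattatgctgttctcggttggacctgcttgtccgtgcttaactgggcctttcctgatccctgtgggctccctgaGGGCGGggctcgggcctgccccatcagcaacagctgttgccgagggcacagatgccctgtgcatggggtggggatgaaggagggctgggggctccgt
The first promoter held 65 CpG dinucleotides and 84.0% G and C, and the second held 8 CpG and 64.7%, against medians of 14 CpG and 58.7% over 35116 promoters of the same length. The letters GGGCGG were found 6 times in the first and 1 time in the second, some of the 6 overlapping each other, when both strands were searched, and 45.0% of all promoters held them. The letters GTCACGC, the core of the binding consensus of PAX2, PAX5 and PAX8, were in neither promoter on either strand and were in 2.52% of all promoters. These windows were searched for letters only, and the sequence under the peaks themselves was not analysed here.

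Of the 23 RXRA peaks, 1 was classed as promoter, 6 as upstream, 1 as exon, 8 as intron and 7 as intergenic. By the listed distances, a promoter peak lies within -2000 to 1999 bp of a start and an upstream peak within -20000 to -2002 bp. The promoter share was 4.35% among RXRA peaks (Wilson 95% interval 0.772% to 21.0%) and 7.48% in the whole list. It rests on 1 peak, and the difference was not tested. The upstream share was 26.1% among RXRA peaks (12.5% to 46.5%) and 16.6% in the list, and the intron share was 34.8% among RXRA peaks and 34.9% in the list. The intergenic share was 30.4% among RXRA peaks (15.6% to 50.9%) and 38.7% in the list. The promoter and upstream classes refer to the start site that a peak was listed with, which can be an inner one. Measured against the longest transcript instead, 3 peaks lay before the first start, 13 lay inside the transcript and 7 lay past the gene end. The 13 inside include the promoter peak and 3 of the 6 upstream peaks, which precede an inner start but are within the body of NM_002957. The classes exon and intron alone, with 9 peaks, therefore leave out 4 peaks within the gene.

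The 3 peaks before the first start held 25, 17 and 18 tags, with listed fold enrichments of 4.74, 5.83 and 7.38. Their centres were 10.6, 9.34 and 2.33 kb from the first start. The first and second of them are 416 bp apart, the smallest gap between any RXRA peaks.

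Between the first and the second start, 4 peaks were listed over 52.8 kb. They held 14, 24, 15 and 18 tags. The last of these is the promoter peak, at 137268968 to 137269825 on chromosome 9, with 18 tags (exact Poisson 95% interval 10.7 to 28.4) and a fold enrichment of 6.39. Its centre is 1744 bp before the second RXRA start by the listed distance. The same peak, and the upstream peak at 137261941 to 137262454 with 15 tags, were also assigned to MIR4669, a microRNA gene whose listed start is 116 bp after the second RXRA start. Which of these starts the promoter peak belongs to cannot be told apart. The microRNA from this gene is shown with its seed, bases 2 to 8, in capitals, as RefSeq gives it.
hsa-miR-4669: uGUGUCCGggaaguggaggagg
Between the second and the third start, 2 further peaks held 16 and 23 tags.

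From the third start to the gene end, 7 peaks were listed over 34.0 kb, or 20.6 per 100 kb (exact Poisson 95% interval 8.27 to 42.4). The short stretch before the first start had a higher value, 27.0 per 100 kb, from 3 peaks over 11.1 kb (5.56 to 78.8). The stretch from the first to the second start had 7.57 per 100 kb (2.06 to 19.4), that from the second to the third 7.34 (0.888 to 26.5) and that past the gene end 8.33 (3.35 to 17.2). All these intervals overlap. The 7 peaks held 27, 15, 30, 20, 18, 14 and 21 tags in their order along the gene. The first of them, with 27 tags at 137308494 to 137309669, is the exon peak, and the peak of 30 tags at 137315113 to 137316319 held the most tags of all RXRA peaks. The 7 peaks fit into 19.0 kb, the shortest run of 7 consecutive peaks at RXRA. It was picked as the shortest in a gene chosen by its number of peaks, so its rank is a description only. Over the autosomes, 16 of 44961 runs of 7 consecutive peaks were as short or shorter, this run included (0.0356%), and the median run was 287 kb long. Of those 16 runs, 5 were within the last 4.29 Mb of chromosome 9, where the median run was 65.9 kb.

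Past the gene end, 7 intergenic peaks held 26, 17, 13, 23, 27, 20 and 25 tags, at 0.829 to 83.5 kb from the end. One of them stands above the others in enrichment. The peak at 137373800 to 137374573, 41.8 kb past the gene end, had 27 tags (17.8 to 39.3), a fold enrichment of 13.6 and a p-value score of 110.1, which is a p-value of 9.82e-12 if the score has base 10. In the whole list, 61 peaks had a higher fold enrichment and 250 a higher score. It was the 1 RXRA peak with a fold enrichment of at least 10 (4.35%), and 4.63% of all peaks reached that level, so the share was near that of the list. The next highest fold enrichment of an RXRA peak was 8.60, at 137326568 to 137327465 in an intron. The peak nearest to the border of the assignment, at 137415464 to 137416483, is 117.6 kb from an RXRA start and 117.7 kb from that of COL5A1, a fibrillar collagen gene. The next peak on that side is 120.8 kb from RXRA and 114.5 kb from COL5A1, and was assigned to COL5A1. On the other side, the last peak outside was 25.9 kb from RXRA and 5.14 kb from LINC02247, a long noncoding RNA gene, and was assigned to LINC02247. All 23 peaks had an RXRA start as their nearest listed start, and no other peak did.

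**Figure D1:**
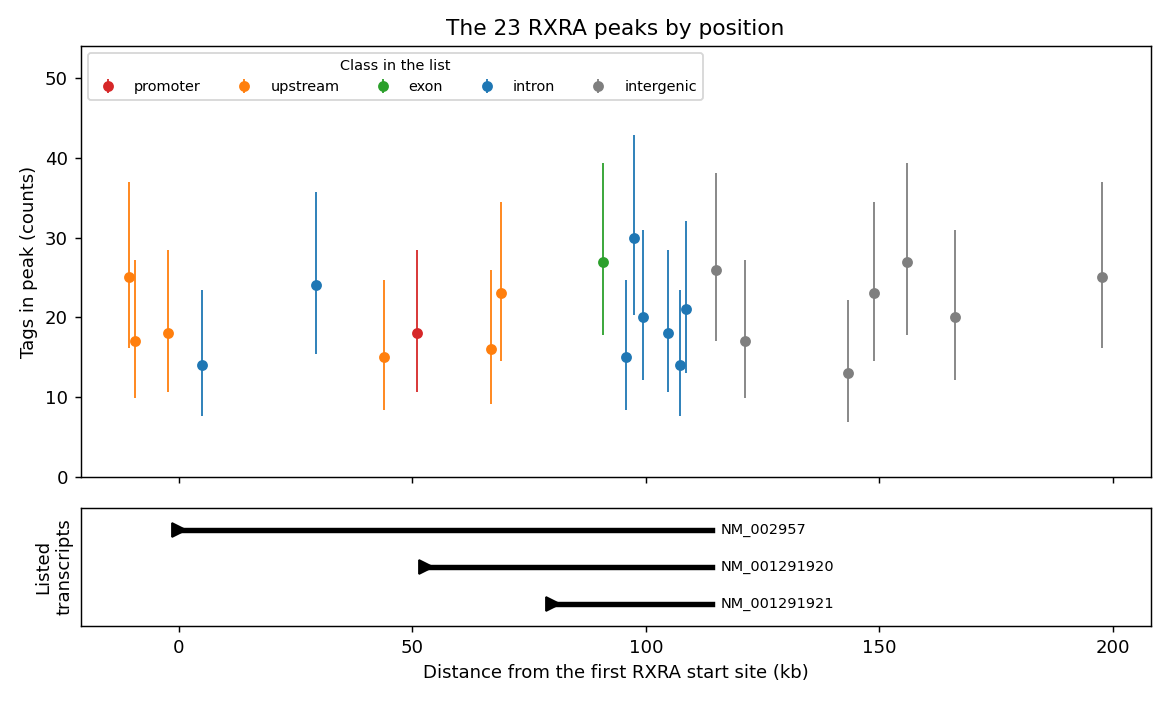
Tags in each of the 23 RXRA peaks (vertical axis, counts, with exact Poisson 95% intervals) against the distance of the peak centre from the first RXRA start in kb, coloured by class, with the 3 listed transcripts drawn below. The intervals overlap along the whole locus, and 7 peaks lie between the third start and the gene end.

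RXRA peaks held more tags than most peaks of the list but did not have higher fold enrichments. The tags of RXRA peaks ranged from 13 to 30 with a median of 20, against 11 to 13742 with a median of 14 in the whole list, and 20 of the 23 were above the list's median. At least 20 tags were counted in 12 RXRA peaks (52.2%) and in 14.0% of all peaks. RXRA peaks were also longer, with a median of 794 bp, against 590 bp in the list. The 500 kb after RXRA had the same trait, with medians of 21 tags and 826 bp. The 500 kb before RXRA had 15 tags and 633 bp, nearer to the list. Both flanks together had medians of 19 tags and 762 bp. Per kb of peak, the medians were 24.5 tags in RXRA peaks and 23.6 in the list. Their median fold enrichment was 6.77, against 7.35, and 17 of the 23 RXRA peaks were below the list's median, 1 was at it and 5 were above. A fold enrichment of at least 8 was listed for 2 RXRA peaks (8.70%), for 19.7% of the 61 peaks in the flanks of 500 kb on each side, and for 35.0% of all peaks. The median p-value score was 52.1 in RXRA peaks and 48.1 in the list. Peaks of 1 library are not replicates, so these differences were not tested.

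**Figure D2:**
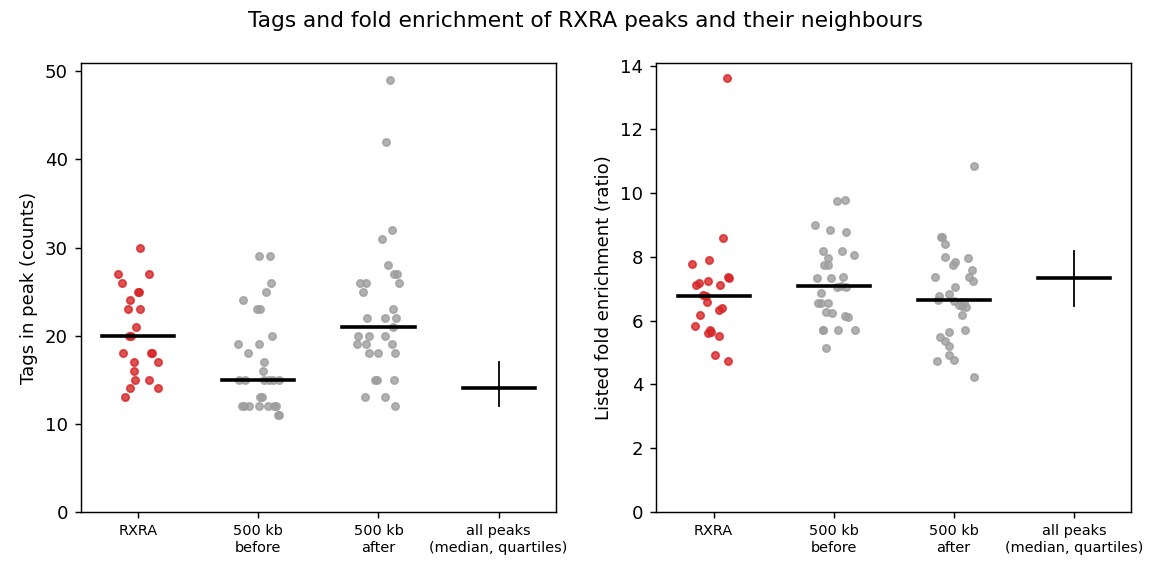
Tags (left, counts) and listed fold enrichment (right, ratio) of the 23 RXRA peaks and of the 30 and 31 peaks in the 500 kb before and after them, 1 point for each peak with a line at the median, and the median and quartiles of all 45360 peaks. RXRA peaks had medians of 20 tags and a fold enrichment of 6.77, against 14 tags and 7.35 in the whole list.

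The background that the authors' p-values imply was raised at RXRA. For each peak, a Poisson mean per kb was solved that makes the probability of more tags than listed equal to the authors' p-value. The most frequent value in the list was 5.94 tags per kb, and 55.7% of all peaks were within 1% of it, called here the genome-wide background. This held for 1 of the 23 RXRA peaks (4.35%, Wilson 95% interval 0.772% to 21.0%), the peak of 13 tags at 137361419 to 137361950. The other 22 were above it, and the highest was 10.5 tags per kb, at 137366712 to 137367530. The median was 7.37 tags per kb in RXRA peaks, or 1.24 times the genome-wide value. The tags found were 2.65 to 4.89 times the inferred background in RXRA peaks, with a median of 3.24, against 3.65 in the list. The highest of these ratios belongs to the peak with a fold enrichment of 13.6.

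The raised background was shared with a long stretch around RXRA. With the RXRA peaks left out, the long arm of chromosome 9 was divided at the point that best separates peaks at the genome-wide background from others, and this point was at 136821648, 397 kb before the first RXRA start. From there to the last peak of the chromosome, a distal segment of 4.29 Mb, 4.64% of the 323 other peaks had the genome-wide background, against 70.9% of the 1293 peaks on the long arm before that point. The segment was defined after the data had been seen. Its border was placed by this same share, so a contrast in the share across it follows from the choice and is a description only. In the 500 kb before RXRA, 12 of 30 peaks (40.0%) had that background, and in the 500 kb after it 0 of 31, so that the change lies within the flank before RXRA. The 323 peaks also had a median of 17 tags and a fold enrichment of 6.79, and the 1293 peaks before the segment had 13 tags and 7.35. RXRA peaks therefore resembled their segment in background and fold enrichment.

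The 23 RXRA peaks spanned 209 kb, from 137207175 to 137416483, and no peak in between was assigned without RXRA. This was 11.0 peaks per 100 kb (exact Poisson 95% interval 6.97 to 16.5). The 500 kb before had 30 peaks, or 6.00 per 100 kb (4.05 to 8.57), and the 500 kb after had 31, or 6.20 (4.21 to 8.80). The density at RXRA was thus 1.80 times that of both flanks together (95% interval of the ratio 1.06 to 2.95). The interval of the density at RXRA overlaps those of the flanks. As the gene was chosen by its number of peaks, neither interval is a test. With peaks below a fold enrichment of 8 left out, the direction turned, to 0.796 times (0.0866 to 3.58), from 2 peaks at RXRA and 12 in the flanks. The window ends at RXRA peaks, which raises its density. Over the 213 kb of bases nearer to an RXRA start than to any other listed start, the density was 10.8 (6.84 to 16.2). That was 1.77 times the density of both flanks (95% interval of the ratio 1.04 to 2.90). Over the longest transcript, with 13 peaks, the density was 11.4 (6.06 to 19.5). Against 64 peaks in the flanks of the transcript, the ratio was 1.78 (0.899 to 3.26). These intervals are not tests either. In 50 kb steps, the highest counts were 7 and 7 peaks, from 50 to 100 kb and from 100 to 150 kb after the first start, against 0 to 6 in the other steps.

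Against the whole genome the RXRA locus was far denser. Chromosome 9 had 1.65 peaks per 100 kb and the autosomes 1.61, so RXRA was 6.65 and 6.81 times as dense. Both lengths run from the first to the last peak of a chromosome. Long gaps without peaks were not removed, which lowers these 2 densities. Of 55800 autosomal windows of the same length, 40 (0.0717%) held at least 23 peaks, and the median window held 3. Of these 40 windows, 20 lay in the distal segment of chromosome 9, and 2 of them overlapped the RXRA locus. The segment without RXRA had 7.91 peaks per 100 kb (7.07 to 8.82), and the part of the long arm before it 1.81 (1.72 to 1.92), so the segment itself was 4.36 times as dense as the part before it. The density at RXRA was 1.39 times that of the rest of the segment, and the interval at RXRA includes the value of the segment. In windows of the RXRA length within the segment, the median was 16 peaks, the highest was 30, and 24.7% of 81 overlapping windows held 23 or more. Over all autosomal windows with 5 or more peaks, of which under 20% were at the genome-wide background, 0.911% held at least 23 peaks, and of those with over 60% at that background 0.0119% did. Of windows with their centre within 5 Mb of the last long-arm peak, 1.72% held at least 23. These shares were taken over windows that include the segment of RXRA, where 20 of the 40 windows lay. Whether the raised inferred background or the place near the chromosome end has a part in the peak number of RXRA was not tested.

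**Figure D3:**
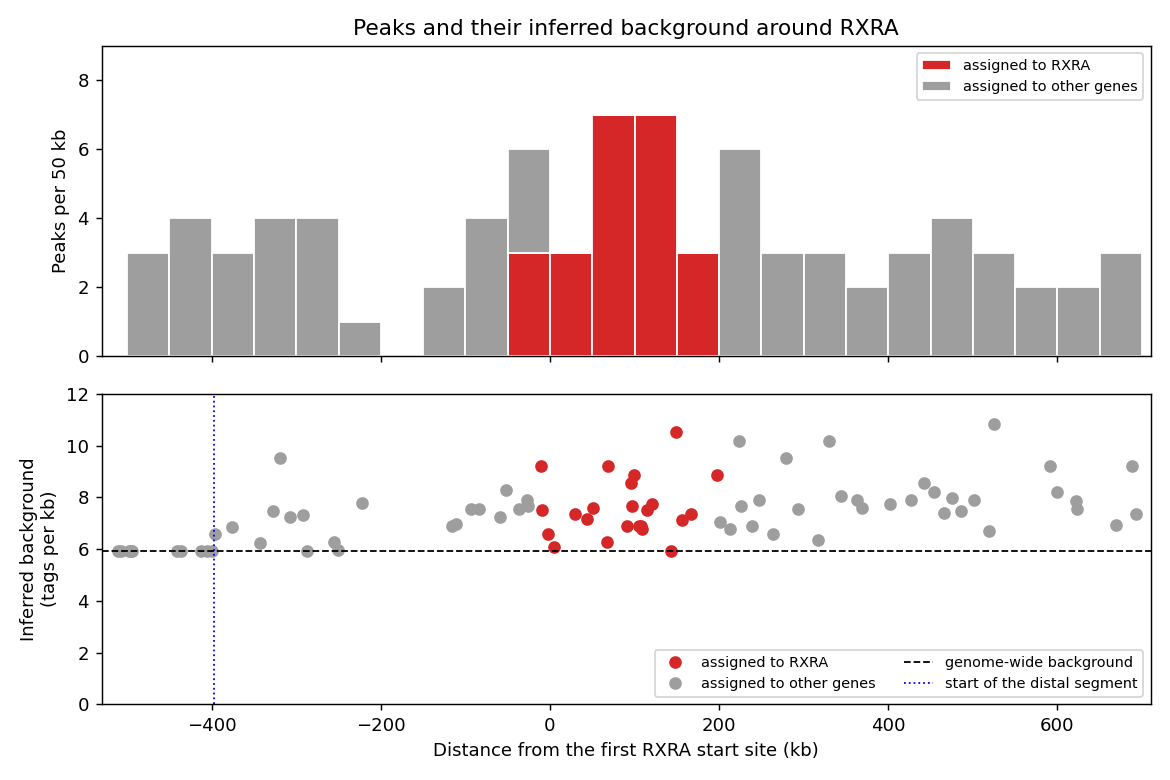
Upper panel, peaks per 50 kb around the first RXRA start, in red those assigned to RXRA. Lower panel, inferred background of each peak in tags per kb. The dashed line is the genome-wide value of 5.94, and the dotted line is the start of the distal segment, 397 kb before RXRA. Most RXRA peaks share the raised values of the peaks after them, and 12 of the 30 peaks before them have the genome-wide value.

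**Figure D4:**
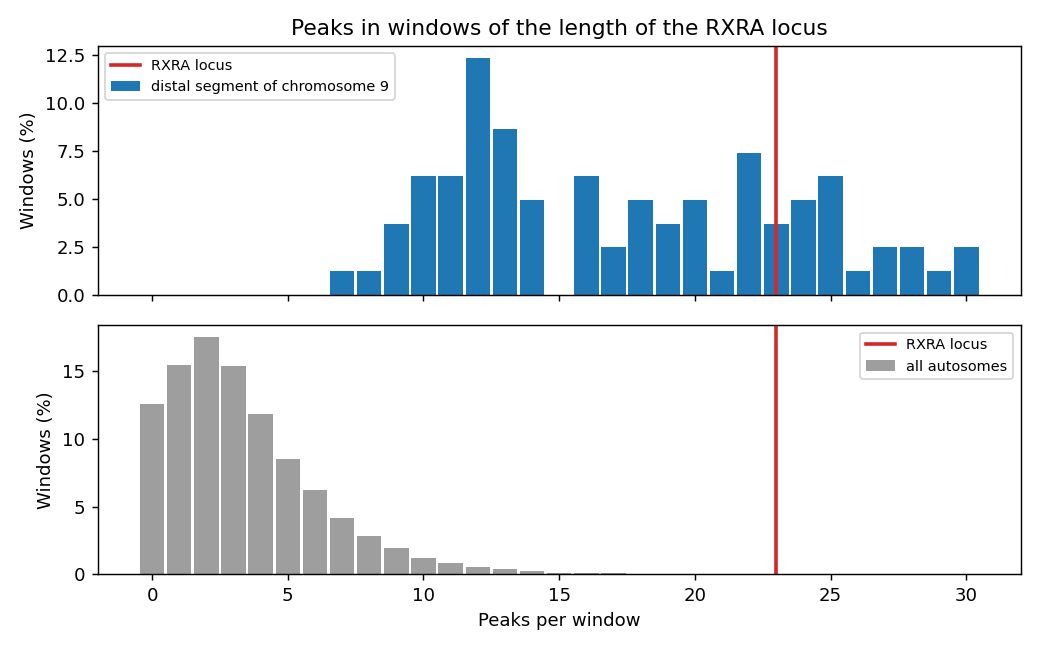
Share of windows (%) by the number of peaks they hold, for windows of the length of the RXRA locus in the distal segment of chromosome 9 (top, 81 windows) and over all autosomes (bottom, 55800 windows). The red line at 23 peaks marks RXRA, which is beyond nearly all autosomal windows and inside the range of its segment.

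The flanking genes had fewer peaks in the 500 kb on each side, but RXRA was chosen by its number and the flanks cut off part of 2 genes. In the whole list, VAV2 had 20 peaks and OLFM1 had 7. Before RXRA, VAV2 had 13 peaks there, LINC02247 had 7, and BRD3, a bromodomain reader of acetylated histones, had 3. WDR5, a subunit of histone methyltransferase complexes, BRD3OS, LOC100130548 and RNU6ATAC, a small RNA of the minor spliceosome, had 2 each. After RXRA, COL5A1 had 20 peaks, FCN1, which encodes the myeloid lectin ficolin, had 5, and OLFM1 and COL5A1-AS1 had 2 each. The microRNA genes MIR3689A, MIR3689B, MIR3689D2, MIR3689E and MIR3689F shared 1 peak of 42 tags, and MIR3689C had 1 of 20 tags. Peaks of COL5A1 held 13 to 32 tags with fold enrichments of 4.72 to 10.9, and RXRA peaks 13 to 30 tags with 4.74 to 13.6, so the ranges overlap along most of their length. Both COL5A1 and FCN1 had a promoter peak, with centres 1007 and 329 bp after their starts.

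Among 15736 gene symbols in the list, 33 (0.210%) had at least 23 assigned peaks. There were 21 symbols with more than RXRA and 11 others with as many, and the median was 2. RXRA had the shortest span of peaks among the 32 of these symbols whose peaks lay on a single chromosome. The next shortest was 225 kb, in MROH5. Its longest transcript, 114 kb, compares with a median of 968 kb over the 33, and 5 of them had a shorter one. By the numbers of peaks in the 5 classes, the gene most like RXRA was ADAMTS2, a procollagen peptidase gene on chromosome 5, with a summed difference of 5 peaks. GLI2, a transcription factor of the hedgehog pathway, followed with 7, and FAT3, an atypical cadherin gene, LINGO1, a neuronal leucine-rich repeat gene, and RIMS1, a presynaptic scaffold gene, with 8 each. ADAMTS2 had 18 peaks over 314 kb with a median of 14 tags, and 12 of the 18 were at the genome-wide background, against 1 of 23 for RXRA. RIMS1, with 0 of 15, was also low in this share, and 11 of the other symbols with at least 23 peaks had a lower share than RXRA. This likeness is over class counts in 1 library only.

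The receptors related to RXRA or known to pair with it had fewer peaks each. RXRA was chosen by its high number, so this difference follows from the choice and is not a result. Of 18 such genes, 11 (61.1%) had an assigned peak, and 54.8% of all protein-coding genes did. A promoter peak was assigned to 3 of the 18, and to 13.3% of all protein-coding genes. The total over the 18 was 42 peaks, at most 9 in 1 gene. Of the other retinoid X receptors, RXRG had 4 peaks of 14 to 19 tags, none of them in a promoter, and RXRB had none assigned. No peak was assigned to NR1H3 and NR1H2, which encode the liver X receptors. PPARA, PPARD and PPARG, the fatty acid sensors, had 4 peaks each, and PPARA had 2 in promoters with 11 to 12 tags over its 4 peaks. Among the retinoic acid receptors, RARB had 9 peaks along a transcript of 769 kb, RARA had 2 and RARG none. The thyroid hormone receptor genes THRB and THRA had 6 and 1, and THRB had a promoter peak 529 bp from a start. NR4A1, which encodes an orphan receptor that forms dimers with RXR, had 3 peaks, 1 of them in a promoter, with fold enrichments of 5.31 to 11.4. NR1H4, the bile acid receptor gene, had 4 peaks and NR1I3, a xenobiotic receptor gene, had 1. VDR, the vitamin D receptor gene, NR1I2, a further xenobiotic receptor gene, and NR4A2, an orphan receptor gene, had none assigned. For a gene with none assigned, a peak close by may still have been given to a neighbour.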

How the data were processed

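The data were 1 list of PAX-8 peaks on hg19, from 1 ChIP library against 1 Input library of THP-1 foam cells that had received C18-3OH. For each peak the authors deposited the count of tags, the fold enrichment as a ratio, a p-value as a score (10 times its negative logarithm), the FDR in percent and the assigned RefSeq transcripts. The submitters' processing notes name FastQC. Neither aligner nor peak caller nor depth is given there. The 103443 lines of the table were reduced to unique positions, and a peak was counted in the window that holds its centre. The base of the score was taken as 10, and the 4 peaks at the largest score, 3100, were left out of the search for the genome-wide background. Windows were stepped by 50 kb between the first and the last peak of each autosome. A table of RefSeq genes (GRCh38.p14) gave names and gene types, and no coordinates were converted. The genes named were RXRA, all genes with a peak within 500 kb, 18 receptor genes and the 5 genes nearest in class counts; MROH5 was named after its value was seen. The members and lists were chosen with earlier results of these data known. No test was run, since 1 library has no replicate. On data simulated with the same Poisson formula, the inferred background was recovered within 1% for 100.0% of 20000 peaks. This checks the solving step only. It cannot show whether the authors' p-values follow that formula or have base 10. Calculations were made in scipy 1.17.1 and pandas 2.3.3, with numpy 2.4.6, on Python 3.11.15, and plots in matplotlib 3.10.9.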

Additional observations from a re-analysis of the deposited data

How the results depend on the processing

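Of 25 alternatives, 18 left the count within 1.5 times or the value within its interval. A fold enrichment of at least 8 left 2 RXRA peaks and a density 0.796 times that of the flanks, and at least 10 left 1 peak and 4.78 times, from 1 peak in each region. FDR of at most 1%, at least 15 tags, merging within 500 bp and the nearest listed start kept 20 to 23 peaks. Among windows of low share at the genome-wide background, windows near the long-arm end and windows of the distal segment, 0.911%, 1.72% and 24.7% held as many peaks as RXRA; these were chosen after the data were seen and use fewer windows. No paired analysis was possible because there is 1 ChIP and 1 Input library. The unknown depth limits all values on tags, and no hg19 sequence of the peaks was analysed here.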
